A study of Mus musculus with 6 samples.

Results

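The interleukin-1 (IL-1) family cytokines and receptors described here are Il1a, Il1b, Il33 and Il18 (cytokines), Il1r1, Il1rap and Il1rl1 (signalling receptors), and Il1rn, Il1r2 and Il18bp (a receptor antagonist, a decoy receptor and a binding protein). The 10 genes were found by their symbols in the expression tables, and 9 of them were listed there among 18182 genes, while Il18bp was not analysed here. All 9 passed the filter on low counts, which 13353 genes passed in all. The group was selected on measured values of these same libraries, namely the levels in LLC with BMSCs against those in LLC alone, so the differences between the groups are given for these 9 genes as descriptions, without p-values.

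RNA was sequenced from Lewis lung carcinoma (LLC) cells, a single mouse line of lung cancer, labelled with red fluorescent protein (RFP). The cells had been injected under the skin of wild type C57BL/6 mice either as LLC-RFP alone (LLC alone, 3 libraries) or as LLC-RFP together with bone marrow-derived mesenchymal stem cells (LLC with BMSCs, 3 libraries), and RFP+ cells were sorted from the primary tumours. The study's methods give 6-week-old female C57BL/6 mice for its allografts, and no further agent was named. Nothing states that the 3 libraries of a group came from separate mice, so that p-values measure only the spread between these libraries. The libraries were not evenly spaced. The mean chi-square per gene was 4.69 between LLC alone replicates 1 and 2, but 59.3 and 56.9 between these and replicate 3. It was 2.98 between LLC with BMSCs replicates 2 and 3, but 19.3 and 18.9 between these and replicate 1. The comparison asks how the expression profile of the cancer cells differs when BMSCs are injected with them. Estimated counts summed to 33476347 to 46189113 per library, and levels are given as FPKM, fragment counts scaled to the length of the transcript and the depth of the library. LLC alone replicate 3 stood apart from the other libraries by gene length, with a median log2 deviation of 0.31 in the shortest of 5 length bins of genes and -0.37 in the longest. Gene length also separated the groups. In the shortest bin LLC alone replicates 1 and 2 were at 0.06 and 0.04, and LLC with BMSCs replicates 1 to 3 at -0.19, -0.09 and -0.11. In the longest bin these values were -0.02 and -0.003 against 0.18, 0.10 and 0.13. Krt8, a keratin of simple epithelia, had mean levels of 95.3 and 110.0 FPKM (LLC alone and LLC with BMSCs), but the lung epithelial markers Epcam, Cdh1, Nkx2-1, Sftpc and Scgb1a1 had means of 0.0333 FPKM or less in both groups.

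IL-1 family cytokines are danger signals of injured tissue and of myeloid cells. IL-1α and IL-1β bind Il1r1, IL-33 binds Il1rl1 (ST2), and both receptors then recruit the shared accessory chain Il1rap, after which the adaptor Myd88, kinases of the Irak family and Traf6 lead to NF-κB and MAP kinases. Signalling is held back outside the cell by the antagonist Il1rn, by the decoy receptor Il1r2 and by soluble receptor forms, and IL-1β and IL-18 are made as precursors that caspase-1 cleaves in the inflammasome.

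The promoter sequences of the genes on which the values below turn are shown first, as the 250 bases before an annotated start, read 5′ to 3′ on the strand of the gene. They were taken from RefSeq (GRCm38.p6). Capitals mark matches to AP-1 (TGANTCA), CRE (TGACGTCA), GAS (TTCNNNGAA), ISRE core (GAAANNGAA), C/EBP (TTGCNNAA) and kappaB, searched on both strands, and to the core promoter box TATAAA, searched on the strand of the gene. Il1a and Il1b, the cytokine genes with the highest FPKM in LLC with BMSCs, are next to each other on chromosome 2.
Il1a, chr2:129309973-129310222, minus strand: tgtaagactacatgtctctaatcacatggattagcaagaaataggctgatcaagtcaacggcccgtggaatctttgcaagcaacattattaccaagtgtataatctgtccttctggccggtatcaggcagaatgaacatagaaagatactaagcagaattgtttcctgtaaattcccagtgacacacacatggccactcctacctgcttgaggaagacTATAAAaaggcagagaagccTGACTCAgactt
Il1b, chr2:129371140-129371389, minus strand: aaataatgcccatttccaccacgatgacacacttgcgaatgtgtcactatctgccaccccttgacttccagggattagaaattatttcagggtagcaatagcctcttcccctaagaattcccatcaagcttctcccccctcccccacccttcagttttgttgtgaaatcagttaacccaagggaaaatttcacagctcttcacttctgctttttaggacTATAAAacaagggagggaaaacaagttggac
Il33, first start, chr19:29924863-29925112, plus strand: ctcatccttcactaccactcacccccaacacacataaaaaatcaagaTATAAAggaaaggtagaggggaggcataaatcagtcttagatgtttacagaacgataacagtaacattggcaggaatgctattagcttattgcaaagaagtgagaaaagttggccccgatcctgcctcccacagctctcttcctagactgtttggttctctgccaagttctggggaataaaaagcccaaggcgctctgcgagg
Il33, second start, chr19:29945540-29945789, plus strand: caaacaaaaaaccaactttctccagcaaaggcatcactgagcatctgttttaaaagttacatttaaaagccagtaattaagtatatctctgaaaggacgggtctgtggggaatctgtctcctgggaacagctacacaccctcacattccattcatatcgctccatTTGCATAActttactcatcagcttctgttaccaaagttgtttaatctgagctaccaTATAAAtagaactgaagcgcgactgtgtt
TATAAA stood close to the start, at bases 32 to 27 before it in Il1a, 31 to 26 in Il1b and 29 to 24 before the second start of Il33. Before the first start of Il33 it stood further away, at bases 203 to 198. Of 32851 promoters 7.59% held TATAAA anywhere in the same length. The Il1a promoter also held TGACTCA at bases 12 to 6 before the start, an AP-1 match of a kind found in 6.75% of promoters. The second Il33 promoter held a C/EBP match at bases 85 to 78, the first held none, and 9.56% of promoters held one.

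The receptor genes Il1r1 and Il1rl1 each have a pair of annotated starts, and these are shown because their transcripts differed in level between the groups.
Il1r1, first start, chr1:40224830-40225079, plus strand: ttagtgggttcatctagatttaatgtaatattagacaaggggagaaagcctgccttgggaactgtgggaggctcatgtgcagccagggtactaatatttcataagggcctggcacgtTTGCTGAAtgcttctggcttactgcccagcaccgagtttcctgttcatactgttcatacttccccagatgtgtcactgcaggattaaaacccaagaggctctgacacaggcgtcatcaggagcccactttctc
Il1r1, second start, chr1:40266336-40266585, plus strand: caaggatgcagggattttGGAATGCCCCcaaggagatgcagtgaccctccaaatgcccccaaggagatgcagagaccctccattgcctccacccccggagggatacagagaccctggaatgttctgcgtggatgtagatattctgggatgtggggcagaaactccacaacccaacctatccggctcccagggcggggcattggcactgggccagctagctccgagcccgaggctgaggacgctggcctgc
Il1rl1, first start, chr1:40429320-40429569, plus strand: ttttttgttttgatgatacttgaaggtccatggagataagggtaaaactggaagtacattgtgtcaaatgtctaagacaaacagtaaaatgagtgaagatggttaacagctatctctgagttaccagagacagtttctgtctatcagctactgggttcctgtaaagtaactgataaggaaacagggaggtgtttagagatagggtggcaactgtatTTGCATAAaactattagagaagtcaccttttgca
Il1rl1, second start, chr1:40439379-40439628, plus strand: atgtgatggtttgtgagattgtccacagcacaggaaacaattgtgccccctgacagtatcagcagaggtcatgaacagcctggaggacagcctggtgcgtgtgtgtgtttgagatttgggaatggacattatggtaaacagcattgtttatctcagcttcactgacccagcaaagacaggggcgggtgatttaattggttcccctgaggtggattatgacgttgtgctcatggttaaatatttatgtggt
Before the first start of Il1r1 and of Il1rl1 stood a C/EBP match, at bases 133 to 126 and 34 to 27. A kappaB match stood at bases 232 to 223 before the second start of Il1r1, and 7.25% of promoters held such a match. The window before the second start of Il1rl1 held none of the motifs searched. These matches describe the letters only and were not tested for binding.

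Il1b and Il1a, which encode the agonists of Il1r1, were close to absent in LLC alone and well measured in every library of LLC with BMSCs. Il1b was at 0.02, 0.02 and 0 FPKM in LLC alone replicates 1 to 3 and at 10.59, 11.43 and 10.93 FPKM in LLC with BMSCs replicates 1 to 3. The LLC alone values rested on 1, 1 and 0 estimated counts against 603, 643 and 611. The ratio of normalised counts was 869 with a 95% counting interval of 240.3 to 7183, which covers counting error only. All libraries of LLC with BMSCs lay far above those of LLC alone.

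Il1a was at 0.03, 0.02 and 0.03 FPKM in LLC alone and at 4.98, 5.44 and 5.3 FPKM in LLC with BMSCs, from 3, 1 and 3 against 423, 456 and 442 estimated counts. Its ratio of normalised counts was 177, with a counting interval of 85.5 to 440. The groups did not overlap. Within LLC with BMSCs, Il1b stood above Il1a in each library, at 2.13, 2.10 and 2.06 times its FPKM.

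Il33, the nuclear alarmin that signals through Il1rl1, followed the same pattern at a lower level. It was at 0.06, 0.05 and 0.02 FPKM in LLC alone and at 1.6, 1.68 and 1.5 FPKM in LLC with BMSCs, from 7, 4 and 2 against 177, 183 and 163 estimated counts. The fitted log2 fold change was 5.20 ± 0.26 (SE, n = 3 per group), and the groups did not overlap.

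Il18, which signals through the separate receptor Il18r1, behaved differently from the other cytokines. It was at 0.97, 0.94 and 1.71 FPKM in LLC alone and at 1.33, 1.29 and 1.68 FPKM in LLC with BMSCs, with a fitted log2 fold change of 0.30 ± 0.23 (SE, n = 3 per group). The groups overlapped, because LLC alone replicate 3 was higher than every other library. Without that library the fitted log2 fold change was 0.57, and since the gene was selected on this contrast nothing is read from that. The 4 cytokines together summed to 1.29 ± 0.408 FPKM (SD, n = 3) in LLC alone, mostly Il18, and to 19.3 ± 0.684 FPKM in LLC with BMSCs.

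**Figure D1:**
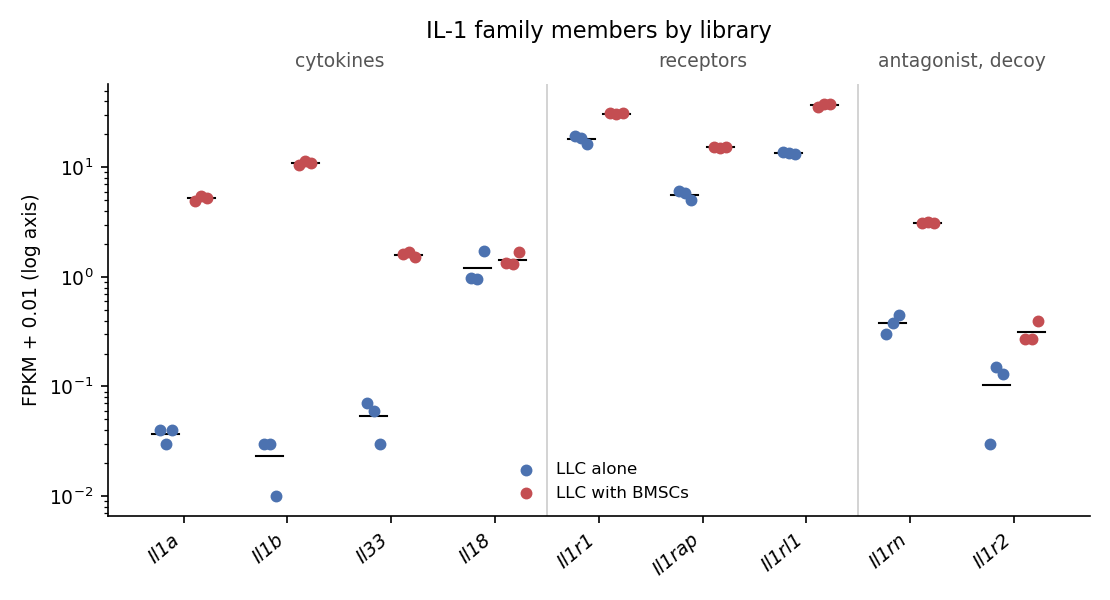
FPKM + 0.01 of the 9 IL-1 family genes in each of the 6 libraries (points; log axis) with the mean of each group (bars). Il1a, Il1b and Il33 sit near 0 in LLC alone and at 1.5 to 11.43 FPKM in LLC with BMSCs. Il1r1, Il1rap and Il1rl1 are above 5 FPKM in every library, and Il1r2 stays below 1 FPKM. Il18 is the one gene whose groups overlap, and of all tested genes 70.6% had no overlap.

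The receptors were expressed in both groups and were higher in LLC with BMSCs. Il1r1, the signalling receptor of IL-1α and IL-1β, was at 19.49, 18.66 and 16.21 FPKM in LLC alone and at 31.15, 30.54 and 31.41 FPKM in LLC with BMSCs. The fitted log2 fold change was 0.76 ± 0.08 (SE, n = 3 per group), the smallest of the 3 receptors. With a trend by gene length removed it was 0.60. The libraries did not overlap between the groups.

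Il1rl1, the receptor of IL-33, was at 13.7, 13.4 and 13.16 FPKM in LLC alone and at 35.35, 37.78 and 38.18 FPKM in LLC with BMSCs, a fitted log2 fold change of 1.46 ± 0.06 (SE, n = 3 per group). Every library of LLC with BMSCs was above every library of LLC alone. Il1rap, the accessory chain without which neither receptor signals, was at 6.04, 5.8 and 5.06 FPKM in LLC alone and at 15.33, 15.18 and 15.2 FPKM in LLC with BMSCs, a fitted log2 fold change of 1.43 ± 0.07 (SE, n = 3 per group). Its groups did not overlap either.

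Il1rl1 and Il1rap were thus higher by similar factors, and Il1r1 by less. The FPKM of Il1rl1 was 2.39 ± 0.181 times that of Il1rap in LLC alone and 2.44 ± 0.113 times in LLC with BMSCs (SD, n = 3). That of Il1r1 was 3.22 ± 0.0117 times that of Il1rap in LLC alone and 2.04 ± 0.0276 times in LLC with BMSCs. The 3 receptor genes together summed to 37.2 ± 2.47 FPKM in LLC alone against 83.4 ± 1.48 with BMSCs.

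Il1rn, the secreted or intracellular antagonist that occupies Il1r1 without signalling, was at 0.29, 0.37 and 0.44 FPKM in LLC alone and at 3.08, 3.14 and 3.13 FPKM in LLC with BMSCs. The fitted log2 fold change was 3.06 ± 0.15 (SE, n = 3 per group) and the groups did not overlap. In LLC alone the FPKM of Il1rn was 5.8, 9.25 and 14.67 times that of Il1a and Il1b together, ratios that rest on at most 4 counts of the agonists in a library. In LLC with BMSCs it was 0.198, 0.186 and 0.193 times that of the agonists. The antagonist transcript was thus above the agonist transcripts in each library of LLC alone and below them in each library of LLC with BMSCs.

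Il1r2, the decoy receptor that binds IL-1 without signalling, stayed low. It was at 0.02, 0.14 and 0.12 FPKM in LLC alone and at 0.26, 0.26 and 0.39 FPKM in LLC with BMSCs, from 1, 6 and 7 against 15, 15 and 22 estimated counts, with a fitted log2 fold change of 1.76 ± 0.50 (SE, n = 3 per group). The groups did not overlap, and without LLC with BMSCs replicate 3 the fit no longer called the gene (log2 fold change 1.55). Il1r2 reached 0.00976 times the FPKM of Il1r1 in LLC with BMSCs.

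In LLC alone the mean levels ran from Il1r1 at 18.1 FPKM through Il1rl1, Il1rap, Il18, Il1rn, Il1r2, Il33 and Il1a to Il1b at 0.0133 FPKM. From Il1r2 downward, neighbours in this order overlapped between libraries. In LLC with BMSCs the order was Il1rl1 at 37.1 FPKM, Il1r1, Il1rap, Il1b, Il1a, Il1rn, Il33, Il18 and Il1r2 at 0.303 FPKM, and of these neighbours the libraries of Il33 and Il18 overlapped.

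By edgeR's quasi-likelihood test with Benjamini-Hochberg adjustment at 0.05, 8 of the 9 genes were called higher in LLC with BMSCs and 0 lower. Of all 13353 genes tested 31.5% were called higher and 31.3% lower, and since the group was selected on this contrast nothing is read from the count. No gene of the group was lower at an unadjusted p under 0.05, nor by DESeq2 or limma. Il1a, Il1b, Il33 and Il1r2 passed the filter on low counts (0.226 CPM in 3 libraries) only through LLC with BMSCs and so had to differ. With 0 libraries of LLC alone over the filter, it set the direction of these differences but not their size. Among all tested genes, 70.6% had FPKM values that did not overlap between the groups.

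The transcript tables divide each gene's fragments among its isoforms, which share most exons, so that these values are estimates. For Il1rl1, NM_010743, which starts downstream of the second start and has a coding sequence of 337 residues, that of the soluble form of ST2, was at 4.51, 2.89 and 1.72 FPKM in LLC alone and at 18.28, 21.44 and 23.72 FPKM in LLC with BMSCs. Its share of the gene's FPKM was 22.5% ± 9.97 (SD, n = 3) in LLC alone and 56.9% ± 5.21 in LLC with BMSCs, without overlap between libraries. NM_001025602, the 567-residue form that spans the membrane, was at 1.90 ± 0.0954 FPKM and 4.84 ± 0.281 FPKM, and its share was 14.2% and 13.1%. The remainder was mostly a transcript that the authors' pipeline assembled, of 2947 bases and with no coding sequence given. Its means were 8.45 ± 1.22 and 9.07 ± 2.89 FPKM (LLC alone and LLC with BMSCs), a difference smaller than the spread in LLC with BMSCs. The share of this assembled transcript was 63.1% ± 10.3 in LLC alone, the largest there, and 24.7% ± 8.87 in LLC with BMSCs. Within each group its FPKM ranked the replicates in the reverse order of NM_010743. How far the shares reflect the division of fragments between these transcripts was not tested. NM_001294171, the 337-residue form from the first start, was listed at 0 in LLC alone and at 0, 2.65 and 2.89 FPKM in LLC with BMSCs.

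The RefSeq transcripts of Il1r1 from the 2 annotated starts differed in opposite directions. NM_001123382, from the second start, was at 9.36, 8.33 and 6.65 FPKM in LLC alone and at 20.53, 22.07 and 18.55 FPKM in LLC with BMSCs, 44.6% ± 3.51 and 65.8% ± 6.62 of the gene's FPKM (SD, n = 3). NM_008362, from the first start, was at 4.3, 4.28 and 4.6 FPKM in LLC alone and at 2.34, 1.36 and 2.09 FPKM in LLC with BMSCs, 24.5% ± 3.41 and 6.21% ± 1.58 of the gene's FPKM. Neither transcript overlapped between the groups. Other Il1r1 transcripts, assembled by the authors' pipeline and not assigned to a start here, held 6.66%, 8.80% and 15.5% of the gene's FPKM in LLC alone. In LLC with BMSCs they held 5.15%, 13.15% and 9.74%. How far these shares reflect the division of fragments was not tested.

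Il1rn was listed in LLC alone as 1 transcript, NM_001039701, whose coding sequence of 178 residues is that of the secreted form. Its level was 0.367 ± 0.0751 FPKM in LLC alone against 2.71 ± 0.0503 with BMSCs (SD, n = 3). In LLC with BMSCs the 162-residue NM_001159562 and the 159-residue NM_031167 were also listed, at 0.273 ± 0.133 and 0.127 ± 0.0710 FPKM, and the secreted form held 87.2% of the gene's FPKM. For Il1rap, NM_008364, the 570-residue membrane form, held 94.2% and 96.6%, and the 360-residue soluble form NM_134103 was at 0.32 ± 0.0964 and 0.46 ± 0.0265 FPKM. For Il33, NM_001164724 from the second start was at 1.06 ± 0.174 FPKM and NM_133775 from the first at 0.537 ± 0.246 FPKM in LLC with BMSCs, and both encode the same 266 residues in length. The Il18 transcripts varied too much between libraries of one group to be compared.

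**Figure D2:**
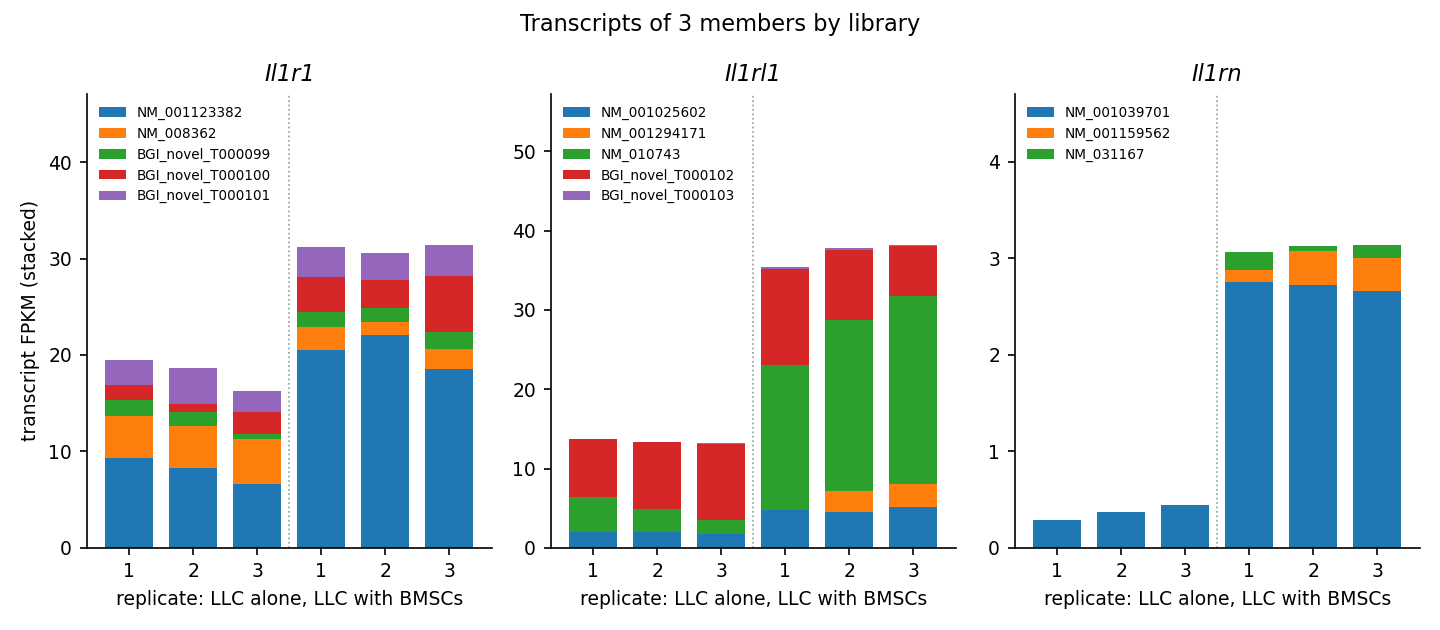
Transcript FPKM of Il1r1, Il1rl1 and Il1rn, stacked by transcript in each of the 6 libraries (bars; LLC alone replicates 1 to 3 left of the dotted line, LLC with BMSCs replicates 1 to 3 right of it). The taller bars of LLC with BMSCs consist mainly of NM_001123382 for Il1r1, of NM_010743 for Il1rl1 and of NM_001039701 for Il1rn.

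Il1r2, Il1r1, Il1rl2, Il1rl1, Il18r1 and Il18rap lie in this order on chromosome 1 in the RefSeq annotation, between Map4k4 and Slc9a4. Expression along the cluster alternated between genes above 10 FPKM and genes close to 0. Il18rap, the accessory chain of the IL-18 receptor, had the highest level of the receptor genes at 22.6 ± 2.33 FPKM without BMSCs and 79.5 ± 0.765 FPKM with them (SD, n = 3). It rose by a log2 fold change of 2.01 ± 0.11 (SE, adjusted p = 4.37e-06, edgeR's quasi-likelihood test). Its estimated counts were not whole in any of the 6 libraries, as occurs where fragments are divided among features. A transcript of 10439 bases that the authors' pipeline assembled held 12.9% of the FPKM of Il18rap in LLC alone and 28.9% in LLC with BMSCs. The RefSeq transcript NM_010553 went from 19.6 ± 0.983 to 56.5 ± 1.15 FPKM. For the gene the ratio of normalised counts was 4.06 and that of FPKM 3.52.

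Il18r1, the chain that binds IL-18, was at 0.0233 ± 0.00577 FPKM and 0.0833 ± 0.0208 FPKM. These levels rested on 10 and 38 estimated counts in all. The gene passed the filter on low counts only through LLC with BMSCs, so the filter set the direction of its difference. The FPKM of Il18rap was 998 ± 219 times that of Il18r1 in LLC alone and 1001 ± 289 times in LLC with BMSCs. Il1rl2, the receptor of the IL-36 cytokines, had a mean of 0.43 normalised counts in LLC alone and 7.7 in LLC with BMSCs and was not tested. The flanking gene Map4k4 was at 75.5 ± 9.03 and 76.7 ± 2.72 FPKM, and Slc9a4 was at 0.0167 FPKM or less.

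**Figure D3:**
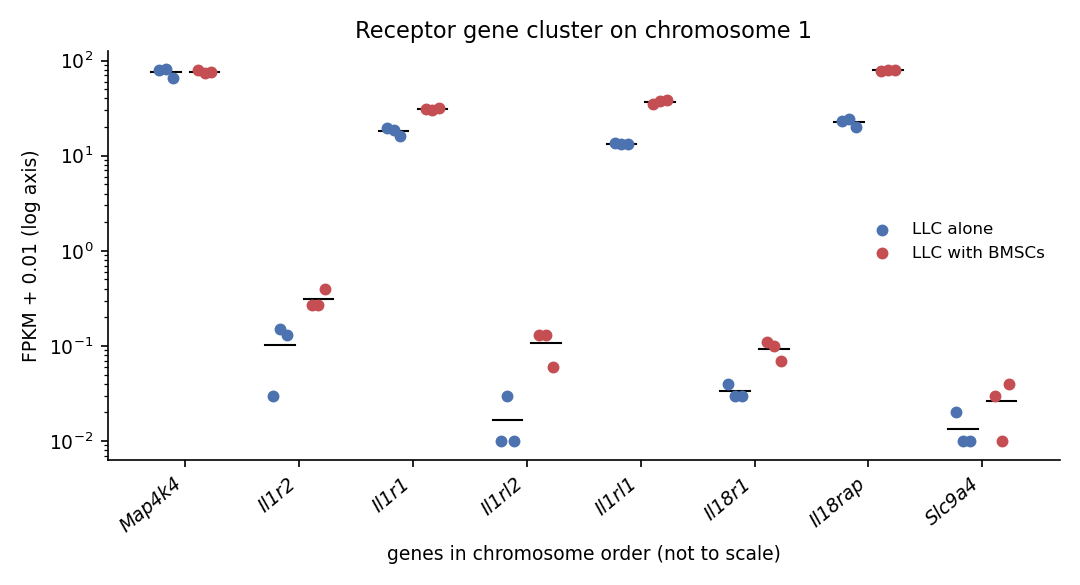
FPKM + 0.01 in each library (points; log axis) with group means (bars) for the receptor gene cluster of chromosome 1 and its flanking genes Map4k4 and Slc9a4, in chromosome order and not to scale. Il1r1, Il1rl1 and Il18rap are above 10 FPKM in every library, and the genes between them are below 1 FPKM.

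The rest of the pathway was followed in 5 lists written from general knowledge, with earlier results of these data known. Of their 93 symbols 84 were in the tables and 72 were tested, and by edgeR's quasi-likelihood test 43 were higher in LLC with BMSCs, 17 were lower and 12 were not called, beside 31.5% and 31.3% of all genes. Of the 72 genes 7 passed the filter only through LLC with BMSCs, 6 of them called higher. Among the other 65 genes 37 were higher and 17 lower, beside 30.3% and 31.6% of the 12189 genes that reached the filter in every library. The median log2 fold change of the 72 genes was 0.44, and that of all genes 0.01. The other ligands and receptors of the family contributed 4 tested genes, all called higher, with Il18r1 passing the filter only through LLC with BMSCs. Besides Il18rap and Il18r1 these were Il1f9, the epithelial cytokine IL-36γ, and Sigirr, a receptor that dampens the family's signalling. Il1f9 went from 0.197 ± 0.0503 to 2.01 ± 0.183 FPKM (adjusted p = 5.73e-06), with estimated counts that were not whole in 5 libraries. Sigirr went from 7.67 ± 0.336 to 11.4 ± 0.851 FPKM (adjusted p = 5.12e-04).

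Genes of cytokine maturation and release moved both ways, with 7 of 16 tested genes higher, 5 lower and 4 not called (median log2 fold change 0.18). Nlrp3, the sensor of the canonical inflammasome, rose from 0.140 ± 0.0200 to 1.81 ± 0.0361 FPKM (log2 fold change 3.65 ± 0.13, adjusted p = 5.82e-07). Gsdmd, the pore through which IL-1β leaves the cell, rose from 2.12 ± 0.288 to 5.39 ± 0.215 FPKM (adjusted p = 4.89e-05). Prtn3, a neutrophil serine protease, rose from 0.990 ± 0.0458 to 3.07 ± 0.239 FPKM (adjusted p = 3.59e-05). Txnip, a thioredoxin-binding protein that can bind Nlrp3, fell from 239 ± 2.06 to 46.4 ± 1.06 FPKM (log2 fold change -2.38 ± 0.05, adjusted p = 1.02e-07).

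Casp1, the protease of IL-1β and IL-18 precursors, went from 8.99 ± 0.913 to 7.69 ± 0.272 FPKM, and its call as lower (adjusted p = 0.0446) was lost in 13 of 18 alternative analyses. Pycard, the adaptor that joins Nlrp3 to Casp1, was close to absent, with means of 3.9 and 12.0 normalised counts, and was not tested.

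Receptor-proximal signalling genes were measured in full, with 11 of 20 higher, 4 lower and 5 not called (median log2 fold change 0.30). Nfkb1, an NF-κB subunit, rose from 30.1 ± 2.04 to 66.7 ± 3.02 FPKM (adjusted p = 9.4e-06). The kinases Irak2 (log2 fold change 0.99 ± 0.09, adjusted p = 4.71e-05), Irak4 (0.83 ± 0.08, adjusted p = 1.08e-04) and Map3k8 (0.95 ± 0.13, adjusted p = 5.1e-04) rose, as did the ubiquitin ligase Traf6 (0.58 ± 0.10, adjusted p = 0.00143). Myd88, the adaptor of the receptors, fell slightly from 35.5 ± 0.687 to 30.6 ± 0.775 FPKM (log2 fold change -0.23 ± 0.05, adjusted p = 0.0068), a call that was lost when the closest libraries of each group were summed (adjusted p = 0.0822). Irak1 was at 28.3 ± 0.416 and 31.7 ± 1.30 FPKM and was not called (adjusted p = 0.0534).

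Among the negative regulators 8 of 10 tested genes were called higher and 2 lower (median log2 fold change 1.07). Irak3 and Serpinb1a passed the filter only through LLC with BMSCs and so had to differ, and of the other 8 genes 6 rose and 2 fell. Irak3, the kinase-dead member that restrains the Irak complex, was at 0.0267 ± 0.0153 and 0.707 ± 0.116 FPKM. Tnfaip3 (A20), a ubiquitin-editing enzyme, rose from 2.55 ± 0.304 to 9.33 ± 0.596 FPKM (adjusted p = 3.92e-06). Nfkbia, the inhibitor that holds NF-κB in the cytoplasm, rose from 156 ± 18.5 to 345 ± 18.5 FPKM (adjusted p = 3.91e-05), and Tnip1, a partner of A20, rose by a log2 fold change of 1.10 ± 0.07 (adjusted p = 1.31e-05).

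Of the genes commonly induced by IL-1, 13 of 22 tested were higher, 6 lower and 3 not called (median log2 fold change 1.02 over the 22). The largest differences were those of Csf3, the granulocyte colony-stimulating factor, and of the matrix metalloproteinases Mmp9 and Mmp13. Csf3, which passed the filter only through LLC with BMSCs and so had to differ, was at 0.0467 ± 0.0252 and 2.97 ± 0.443 FPKM, and its ratio of normalised counts was 68.1 with a counting interval of 32.8 to 170. Mmp9 went from 0.147 ± 0.0379 to 5.39 ± 0.132 FPKM (adjusted p = 2.43e-07) and Mmp13 from 0.763 ± 0.0603 to 23.4 ± 1.56 FPKM (adjusted p = 7.59e-08).

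The list did not move as one. Among members named after their values were seen, the chemokine Ccl20 fell from 47.0 ± 3.35 to 2.79 ± 0.206 FPKM (adjusted p = 1.02e-07), the cytokine Il6 from 9.09 ± 1.06 to 4.37 ± 0.150 FPKM (adjusted p = 9.11e-05) and the prostaglandin synthase Ptgs2 from 79.3 ± 5.59 to 38.7 ± 0.671 FPKM (adjusted p = 8.93e-06). The neutrophil attractant Cxcl1 was at 413 ± 50.4 and 477 ± 57.2 FPKM and was not called (adjusted p = 0.191).

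**Figure D4:**
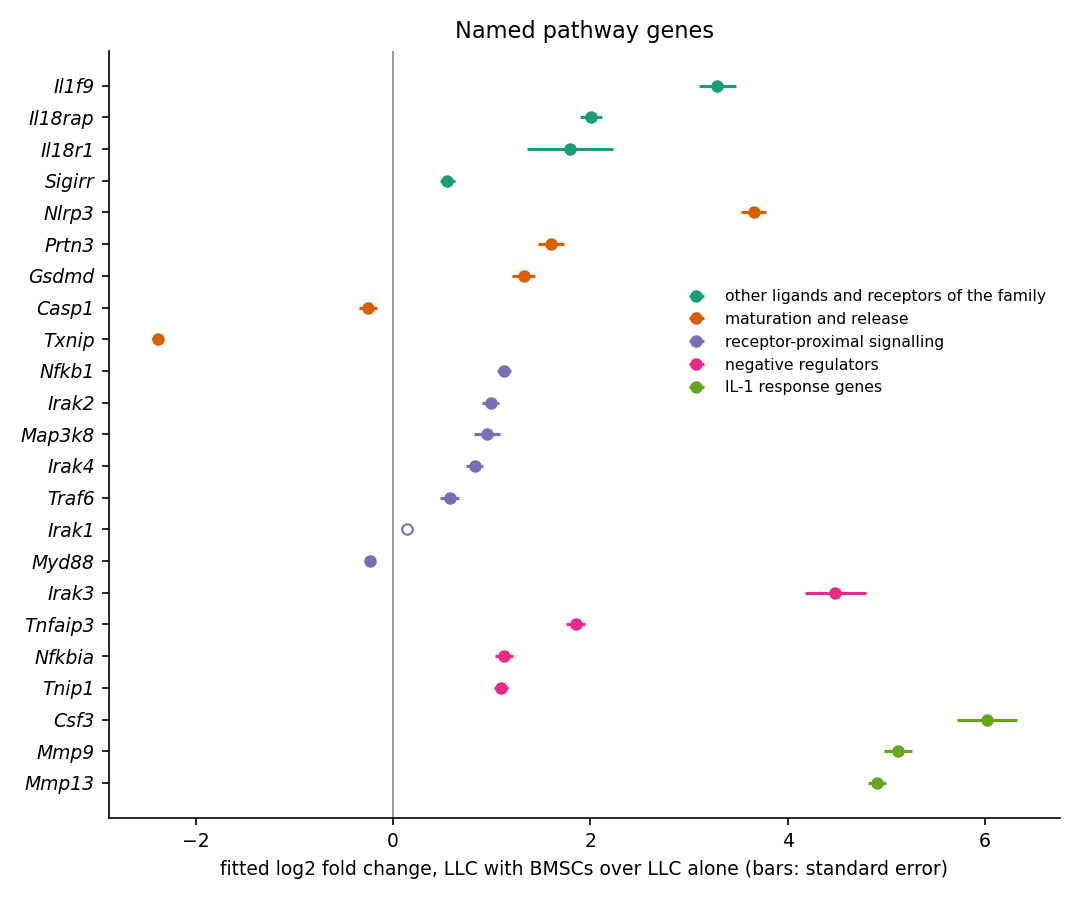
Fitted log2 fold change of LLC with BMSCs over LLC alone (horizontal axis; bars are standard errors) for the 23 tested pathway genes named by rule, coloured by list. Filled points were called at an adjusted p of 0.05 and the open point, Irak1, was not; Txnip, Casp1 and Myd88 lie below 0 and Csf3 lies highest.

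Markers of other cell types that the RFP+ gate could hold also differed between the groups. In bulk samples, fewer cells of a type and less RNA per cell cannot be told apart. The counts of called markers below stand beside 31.5% of all tested genes called higher and 31.3% called lower. Neutrophil markers summed to 0.479 to 0.810 CPM in LLC alone and to 21.1 to 23.8 CPM in LLC with BMSCs, beside 1.08 to 1.60 and 28.2 to 30.1 CPM for the 4 cytokine genes. Of the 7 neutrophil markers tested, 6 (S100a8, S100a9, Mpo, Ngp, Camp and Csf3r) passed the filter only through LLC with BMSCs and so had to differ, and the other, Cxcr2, rose. Mpo was at 0 in LLC alone, and S100a8 and S100a9 reached 20.2 and 22.4 FPKM in LLC with BMSCs. Ly6g, the surface marker of mouse neutrophils, was at 4, 3 and 1 estimated counts in LLC alone and 3, 1 and 1 in LLC with BMSCs.

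Macrophage markers summed to 24.9 to 29.8 CPM in LLC alone and 37.2 to 39.6 CPM in LLC with BMSCs. The largest part was Cd14, at 9.49 ± 0.970 and 10.1 ± 0.866 FPKM, which was not called (adjusted p = 0.587, edgeR's quasi-likelihood test). Fcgr1 held 7 and 21 estimated counts in all and Aif1 2 and 2, and neither was tested. Of 10 tested, Adgre1, Ptprc, Itgam, Mrc1 and Tyrobp passed the filter only through LLC with BMSCs. Adgre1, Itgam and Tyrobp, with 0 libraries of LLC alone over the filter, so had to differ. Ptprc and Mrc1 each had 1 such library over it, so for them the filter only favoured a higher value in LLC with BMSCs. Cx3cr1 passed it only through LLC alone, so the filter set the opposite direction. This gene was called lower, falling from 0.16 ± 0.02 to 0.0567 ± 0.00577 FPKM. Of the 4 markers that reached the filter in every library 2 rose and 1 fell. Adgre1 (F4/80) was at 0 in LLC alone and at 60, 79 and 63 estimated counts in LLC with BMSCs, at least 20.6-fold higher, and the pan-leukocyte gene Ptprc went from 0.0300 ± 0.0200 to 0.450 ± 0.0400 FPKM. Cd68 fell from 5.55 ± 0.509 to 3.03 ± 0.356 FPKM (adjusted p = 5.01e-04). Mast cell and basophil markers, of interest because such cells carry Il1rl1, summed to 0.654 to 0.921 and 2.06 to 2.18 CPM. Of these 1 of 2 tested was higher. Cpa3 held 0 estimated counts in LLC alone and 4 in all in LLC with BMSCs, and was not tested. T, NK and innate lymphoid markers summed to 1.26 to 1.78 and 0.832 to 1.03 CPM, with Gata3 called lower and Il7r higher. Il7r passed the filter only through LLC with BMSCs. Nkg7 held 0 estimated counts in LLC alone and 2 in all in LLC with BMSCs, and was not tested.

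BMSC and fibroblast markers summed to 365.7 to 430.8 CPM in LLC alone and 792.6 to 845.1 CPM in LLC with BMSCs. Of those tested 10 of 10 were called higher, beside 31.5% of all genes. Col1a1, Dcn and Lum passed the filter only through LLC with BMSCs, which favours a higher value there, and the other 7 rose. Most of this sum was Col3a1, at 43.14, 43.62 and 36.77 FPKM in LLC alone replicates 1 to 3 against 101.72, 99.4 and 98.96, but the gaps were wider for other genes of the list. Col1a1 was at 0.01, 0.02 and 0.01 FPKM in LLC alone against 2.24, 1.92 and 1.85 FPKM, a ratio of normalised counts of 146 with a counting interval of 79.3 to 306, and Dcn at 0.110 ± 0.0173 and 6.31 ± 0.223 FPKM, a ratio of 59.5 with an interval of 39.8 to 93.1. Thy1 and Cxcl12 were at 0 in LLC alone, held 3 and 27 estimated counts in all in LLC with BMSCs, and were not tested. Dendritic cell markers summed to 10.3 to 10.98 and 13.2 to 13.8 CPM (2 of 5 tested higher, 1 lower). Endothelial markers summed to 1.05 to 1.26 and 1.40 to 1.82 CPM. Pecam1 and Vwf were tested and not called by edgeR's quasi-likelihood test (adjusted p = 0.608 and 0.416). Keratinocyte markers summed to 0.120 CPM or less in each library, and lung epithelial and carcinoma markers to 158.0 to 179.4 and 187.7 to 195.7 CPM. Almost all of the sum of the last list was Krt8, which rose. Krt18 was also called higher, with means of 0.0833 and 0.653 FPKM. Krt18 passed the filter only through LLC with BMSCs. The part of any of these cell types in the values of the IL-1 family genes was not tested.

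**Figure D5:**
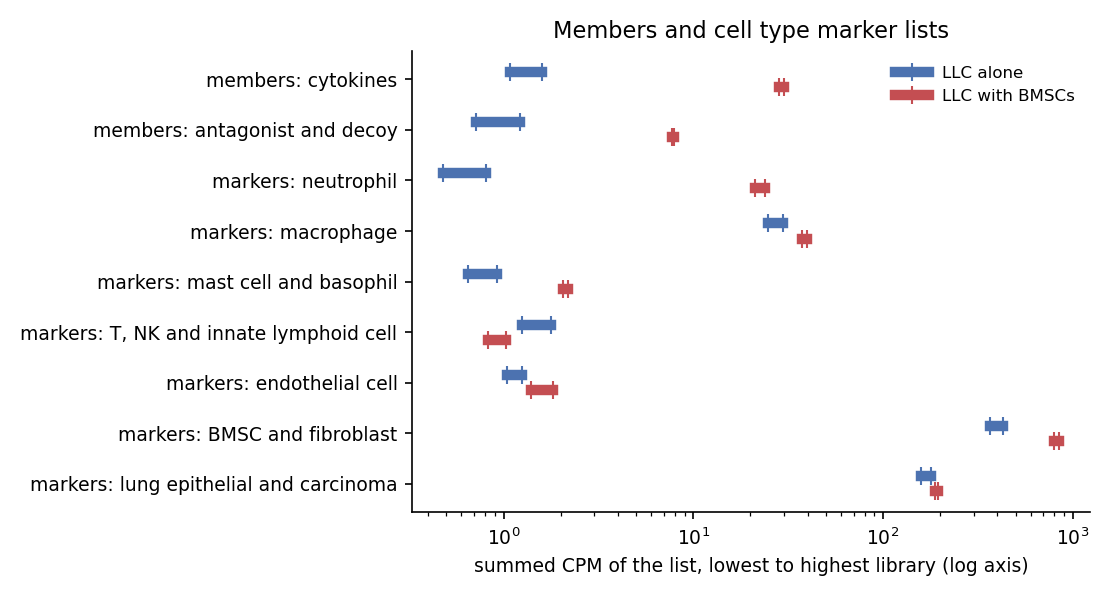
Summed CPM of the cytokine members, of Il1rn and Il1r2, and of 7 cell type marker lists, drawn from the lowest to the highest of the 3 libraries of each group (horizontal log axis). The cytokine members and the neutrophil markers have the widest gaps between the groups, and the lung epithelial and carcinoma markers the narrowest.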

How the data were processed

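Polyadenylated RNA of sorted RFP+ LLC cells was extracted with TRIzol and sequenced on the BGISEQ-500 in 6 libraries, 3 per group, grouped by their labels. For genes and transcripts the authors deposited estimated counts, which were not normalized and were in 21.9% to 23.2% of listed genes not whole, and also FPKM values. The submitters' processing notes name HISAT, StringTie, Cufflinks and GATK and the build mm8, without roles; the program that made the counts is not given in the sources used here, nor whether strand was used. Counts divided among transcripts and near-identical genes are estimates.

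Estimated counts were rounded. edgeR 4.0.16 (R 4.3.3) was used with TMM scaling, its default filter (minimum count 10) and quasi-likelihood tests for the difference between the groups, fitted on all 6 libraries. The Benjamini-Hochberg adjustment ran over 13353 genes, with calls at 0.05. The 9 measured members are described without p-values. With 3 against 3 libraries an exact two-sided permutation test cannot go below 0.1, so single genes rest on the fitted model. Errors of fold changes are standard errors, and those of FPKM are SD. Groups with all libraries at 0 were set to 3 counts per library for a bound, and low counts were given 95% exact counting intervals; both cover counting error only. Summed CPM is the total over the genes of a list.

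The members and gene lists were chosen with earlier results of these data known. Named pathway genes were the 3 called genes of each list with the largest change, at least 50 normalised counts on average and no overlap of FPKM, plus 14 core pathway genes. Promoters came from RefSeq (GRCm38.p6), and coding lengths from GENCODE M21 (GRCm38); no coordinate was taken from the deposited files. Alternatives used DESeq2 1.42.0, limma 3.58.1 on log2(FPKM + 1) and log2(FPKM + 0.1), other scalings and filters, a gene length trend removed, the closest libraries of each group summed, and left-out libraries. The scripts were tested on simulated data.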

Additional observations from a re-analysis of the deposited data

How the results depend on the processing

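The 9 IL-1 family genes kept a positive fitted difference in all 156 values from the alternatives. Since they were selected on this contrast in the same libraries, nothing is read from that. The number called higher, 8, fell to 4 with at least 10 counts required in every library, because Il1a, Il1b, Il33 and Il1r2 were then not tested. It lay between 7 and 9 when a library was left out. Without LLC alone replicate 3, Il18 was called as well, as it was with the gene length trend removed, where its log2 fold change was 0.61. With that trend removed, the log2 fold changes of Il1r1, Il1rap, Il18rap and Traf6 were lower, at 0.60, 1.305, 1.79 and 0.36. Without LLC with BMSCs replicate 3, Il1r2 was no longer called, and it was not tested in the filtered limma analyses. On log2(FPKM + 1), a scale that understates changes of low genes, limma gave 2.60 for Il1a, 3.56 for Il1b, 1.31 for Il33 and 1.59 for Il1rn, the lowest values of these genes. Over all genes, calls ranged from 3364 to 4758 higher and 3301 to 4573 lower, both lowest with the closest libraries of each group summed. With these summed, the adjusted p of Nfkb1 was 5.39e-04 by edgeR's quasi-likelihood test, against 9.4e-06 with the libraries apart. Pathway genes called higher ranged from 38 to 50 and called lower from 11 to 17, the 11 with the closest libraries of each group summed, where fewer samples were tested. Of 23 named pathway genes 20 kept their call. Casp1 lost it in 13 of 18 alternatives (log2 fold change -0.30 to -0.06) and Myd88 in 1, the summed libraries (adjusted p = 0.0822 by edgeR's quasi-likelihood test), and Irak1 gained it in 7. None of these results changed direction.

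Same-numbered libraries of the groups did not deviate together (correlations 0.08, -0.11 and 0.06 over 13353 genes, and 2 of the 6 libraries correlated best with their own number), so the numbers were not taken as pairs. With the replicate number as a block (replicate block), 4161 genes were called higher and 4058 lower, 8 members higher and 0 lower, and 42 pathway genes higher and 14 lower. Depth limits Il1a, Il1b, Il33 and Il1r2, whose LLC alone values rest on 0 to 7 counts, and the transcript values, which divide shared fragments.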
